A study of Homo sapiens with 3 samples.

Results

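In MDA-MB-231 cells, 1530 of the 13003 Fra-2 peaks (11.8%) were narrow sites near genes that held a single AP-1 element and were also bound by Fra-1. MDA-MB-231 is an established cell line from a human breast tumour, triple-negative and basal B per the labels, which was grown with serum and for which they name no drug or other treatment. Fra-2 and Fra-1 were each mapped by chromatin immunoprecipitation followed by sequencing (ChIP-seq), with 1 deposited peak list per antibody, so replicate spread cannot be given for any value. The input DNA library was not analysed here. The members were chosen by width, overlap, position and sequence. A member was a Fra-2 peak on chromosomes 1 to 22, under 300 bp wide, that shared at least 1 bp with a Fra-1 peak. It lay over 1 kb from every start site of transcription (TSS) of protein-coding and lncRNA genes and within 100 kb of a protein-coding TSS. Within 100 bp of its centre it held exactly 1 copy of TGAGTCA or its reverse complement TGACTCA, and no MCAT core (GGAATG or CATTCC), the site read by TEAD factors. These members are called single-element peaks below.

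AP-1 is a family of dimeric transcription factors made of Fos and Jun proteins. Each dimer grips a short, nearly palindromic DNA element through a pair of basic helices, and the leucine zippers hold the partners together. Fra-1 (FOSL1) and Fra-2 (FOSL2) are Fos family members without the strong activation domain of c-Fos, and both pair with Jun proteins. Fra-1 is abundant in triple-negative breast cancer lines and is known for its part in motility and invasion. AP-1 acts largely from enhancers, far from the promoters it regulates, and commonly beside ETS, RUNX and TEAD factors.

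The sequences below show what such a site looks like beside genes of 10 lists of known function. Each is the plus strand of GRCh37 (hg19) with 50 bases to each side of the element, which is in capitals, and each belongs to the single-element peak nearest to a TSS of the named gene.
ATF3 (chr1:212740543-212740649, plus strand): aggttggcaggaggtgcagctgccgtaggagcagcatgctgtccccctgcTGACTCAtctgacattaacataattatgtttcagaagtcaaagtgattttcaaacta
GADD45A (chr1:68152457-68152563, plus strand): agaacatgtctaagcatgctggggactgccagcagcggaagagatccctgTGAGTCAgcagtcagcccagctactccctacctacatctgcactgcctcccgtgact
SNAI1 (chr20:48593313-48593419, plus strand): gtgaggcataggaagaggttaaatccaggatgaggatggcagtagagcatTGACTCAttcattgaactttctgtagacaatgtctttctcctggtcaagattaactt
ADAM17 (chr2:9692845-9692951, plus strand): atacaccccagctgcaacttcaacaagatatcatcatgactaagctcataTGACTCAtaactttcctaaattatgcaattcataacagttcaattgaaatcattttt
CSF3 (chr17:38177811-38177917, plus strand): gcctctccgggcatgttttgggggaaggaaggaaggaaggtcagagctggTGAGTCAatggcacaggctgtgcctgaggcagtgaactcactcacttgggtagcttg
DUSP5 (chr10:112261159-112261265, plus strand): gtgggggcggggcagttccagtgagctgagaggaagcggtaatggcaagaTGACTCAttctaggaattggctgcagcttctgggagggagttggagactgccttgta
LTBP2 (chr14:75084908-75085014, plus strand): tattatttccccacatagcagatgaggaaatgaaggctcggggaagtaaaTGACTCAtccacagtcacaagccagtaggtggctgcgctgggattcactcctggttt
LAMA5 (chr20:60932267-60932373, plus strand): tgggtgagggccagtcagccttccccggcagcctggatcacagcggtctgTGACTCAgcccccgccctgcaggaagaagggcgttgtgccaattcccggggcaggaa
VCL (chr10:75759189-75759295, plus strand): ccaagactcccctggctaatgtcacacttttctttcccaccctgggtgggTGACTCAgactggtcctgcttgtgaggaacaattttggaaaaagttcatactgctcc
CDKN1A (chr6:36647953-36648059, plus strand): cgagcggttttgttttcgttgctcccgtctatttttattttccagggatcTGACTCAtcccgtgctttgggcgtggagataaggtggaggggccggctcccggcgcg
ATF3, a stress-induced AP-1 partner, and CDKN1A, the cell cycle inhibitor p21, had the peak in an intron, with its centre 1.95 and 1.55 kb from a TSS. The ATF3 element (212740593 to 212740599) lay in the Fra-2 peak but just outside the Fra-1 peak (212740601 to 212740701). The ADAM17 element ended where its Fra-1 peak ended, at 9692901, and was counted as outside that peak. All distances given for named genes run from the centre of the peak, not from the element. They run to the nearest start of any protein-coding transcript of the gene. Such a start can lie inside the gene and need not be its main promoter. The peak of GADD45A, a growth arrest gene that YAP induces, lay 1.44 kb from a TSS, and that of VCL, the focal adhesion protein vinculin, 1.35 kb. SNAI1 encodes the mesenchymal repressor Snail, and its peak stood 6.22 kb from a TSS between genes. DUSP5, a phosphatase of nuclear ERK, had its peak at 3.51 kb, and ADAM17, the sheddase of EGFR ligands, at 3.04 kb. LTBP2 encodes a latent TGF-beta binding protein, LAMA5 a laminin chain and CSF3 the granulocyte growth factor; their peaks lay at 6.09, 5.28 and 6.14 kb. The peak by CSF3 was nearer to a TSS of MED24, at 1.54 kb.

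The filters removed peaks in steps. Of the Fra-2 peaks, 12695 lay on chromosomes 1 to 22, 11052 of these were under 300 bp wide, and 6247 of these shared a base with Fra-1. Of the shared peaks, 5810 were over 1 kb from every TSS, 3611 were also within 100 kb of a protein-coding TSS, and 3530 lay 1 Mb or more from long runs of N. Exactly 1 element was present in 1969 of these, and 1530 of those had no MCAT core. The sets closest to the members by the same filters were 2027 Fra-2 peaks without a Fra-1 peak (Fra-2-only), 525 shared peaks over 100 kb from a protein-coding TSS (gene deserts) and 425 shared peaks with several elements. At the width limit, the 434 members of 250 bp had a median Fra-1 width of 200 bp, against 250 bp for the 230 otherwise like peaks of 300 bp. At the distance limits, the nearest members lay 1023 bp and the farthest 99824 bp from a TSS, against 998 and 100042 bp for the nearest peaks left out.

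The Fra-1 and Fra-2 peaks at these sites, which overlap by the rule, differed in extent more often than not. Start and end were identical in both lists at 500 of 1530 members (32.7%). The Fra-2 peak was the wider at 651 (42.5%), the Fra-1 peak at 312 (20.4%), and widths were equal at 567 (37.1%). Median widths were 200 bp for Fra-2 and 150 bp for Fra-1, on the 50 bp grid of the lists. Fra-2 widths were 100 bp at 229 members, 150 bp at 362, 200 bp at 505 and 250 bp at 434. Width was part of the rule, so these counts are a description. The lists hold no height or score, and read depth is unknown.

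**Figure D1:**
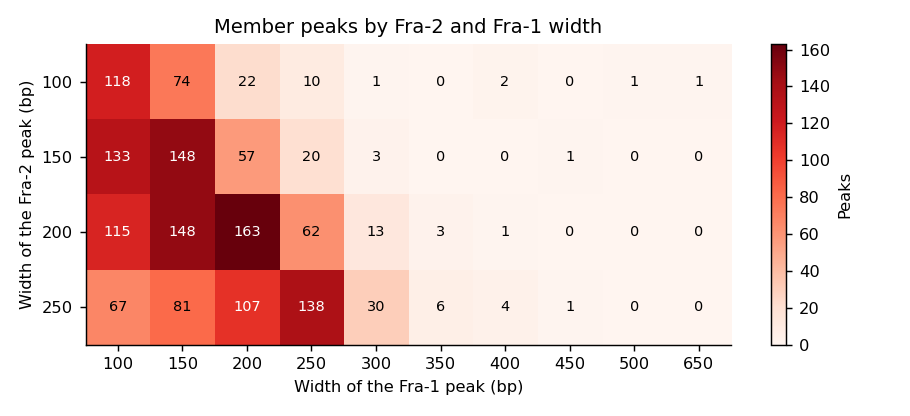
Number of single-element peaks by the width of the Fra-2 peak (rows, bp) and of the Fra-1 peak it overlaps (columns, bp), as both lists give them. The most frequent pair, with 163 peaks, is 200 bp in both lists.

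The 10 widest Fra-1 partners were 400 to 650 bp wide. A Fra-1 peak of 650 bp covered a member in an intron near WFDC3 on chromosome 20 (44408151 to 44408251), and one of 500 bp a member near ARHGAP22, a regulator of the GTPase Rac, on chromosome 10 (49814901 to 49815001). Near KIAA1755 the Fra-1 peak was 450 bp wide. In EGFR, the receptor of epidermal growth factor, a Fra-1 peak of 400 bp met a Fra-2 peak of 100 bp over an exon (chr7:55224301-55224401). The next peak of either list, overlapping Fra-1 peaks left out, was 0.175 kb away. Company was not shared by all 10: by KCNJ15, a potassium channel gene, a Fra-1 peak of 400 bp met a Fra-2 peak of 250 bp. There the next peak of either list was 398.1 kb away.

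The element sat close to the middle of the peaks. Its median distance was 20 bp from the Fra-2 centre and 22 bp from the Fra-1 centre. It lay within 25 bp of the Fra-2 centre in 933 members (61.0%) and of the Fra-1 centre in 856 (55.9%). It was inside both peaks at 1401 members (91.6%) and inside neither at 38. The rule allowed 100 bp from the Fra-2 centre, so these shares are a description. The element lay within 25 bp of the centre in 56.3% of Fra-2-only peaks and 56.2% of gene desert peaks.

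**Figure D2:**
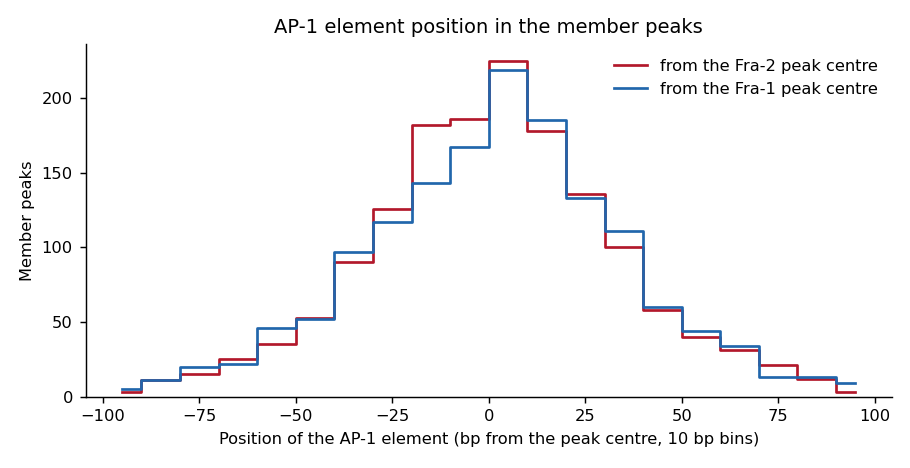
Position of the AP-1 element relative to the centre of the Fra-2 peak (red) and of the Fra-1 peak (blue), as the number of single-element peaks per 10 bp. Both profiles are highest within 10 bp of the centre, with 225 peaks for Fra-2 and 219 for Fra-1.

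Few of the genome's AP-1 elements were occupied. Of 214437 single elements that met the same conditions of position, spacing and sequence, 2196 lay in a Fra-2 peak shared with Fra-1, or 1.02% (95% exact Clopper-Pearson interval 0.982 to 1.07), and this is the share against which the following shares are read. A further 1973 were in Fra-2-only peaks, 320 in a Fra-1 peak without a Fra-2 peak, and 208476 lay over 500 bp from every peak (unbound). When the window was centred on the element instead of the peak, 1485 members still met the conditions, and these stand for the members in every comparison with unbound elements. Intervals and p-values are over regions of 1 pair of lists, treat neighbouring regions as independent and cover counting error only.

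Occupied elements stood in surroundings of higher GC than unbound elements. The share in shared peaks was 0.163% (0.126 to 0.207) where the window had under 35% GC and 3.88% (3.38 to 4.44) at 60% or more. GC of the window was at least 50% at 39.7% of members and 19.5% of unbound elements, a difference of 20.1 percentage points (17.6 to 22.6, adjusted two-sided Fisher exact p = 3.82e-70). All p-values here come from this test with Benjamini-Hochberg adjustment, unless the text names another test or no adjustment. Median GC was 47.8% at members and 42.8% at unbound elements. Elements whose surroundings recur in the genome, with 7 bases on each side, made up 5.72% of members and 23% of unbound elements (adjusted exact p = 4.10e-72). Whether short reads map equally well to such copies was not tested.

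Distance to a gene made a smaller difference. The share in shared peaks was 1.28% (1.15 to 1.42) at 1 to 5 kb from a TSS and 0.887% (0.809 to 0.971) at 50 to 100 kb. A TSS lay within 10 kb of 29.5% of members and 25.3% of unbound elements (adjusted exact p = 0.000349). Among windows of 40 to 50% GC the difference was 1.34 percentage points (unadjusted exact p = 0.417), and at 50% or more it was 3.09 points (unadjusted exact p = 0.123). The call was thus lost within these GC bands, which hold fewer elements than the whole set. Windows under 40% GC were not tested in this way. Elements near genes were in shared peaks more often than elements in gene deserts, at 1.02% against 0.544% (ratio 1.88, 1.73 to 2.04; adjusted exact p = 1.93e-54). That difference was present in each of 4 GC bands, with ratios of 1.82, 1.32, 1.27 and 1.41 from low to high GC. Introns held 54.5% of members and 54.8% of unbound elements, a difference of -0.23 points (-2.77 to 2.31; adjusted exact p = 0.875).

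**Figure D3:**
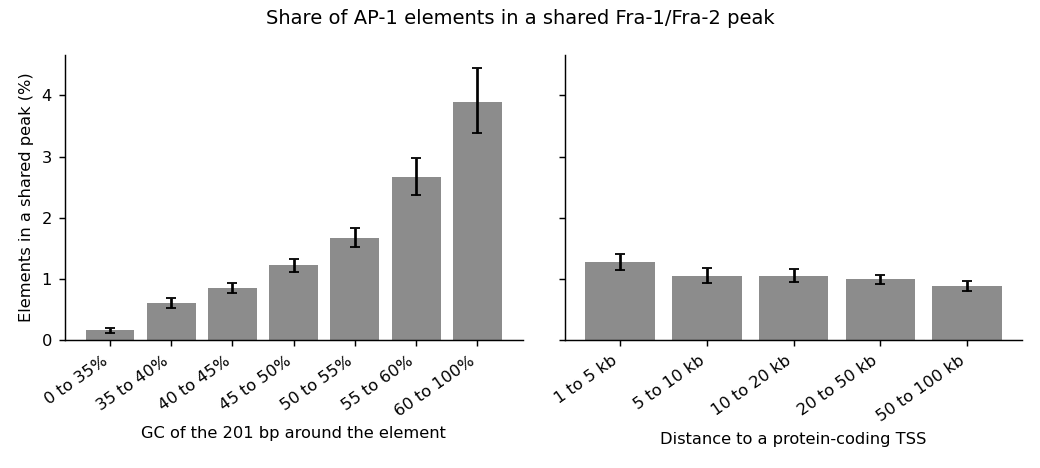
Share of single AP-1 elements (%) that lie in a Fra-2 peak shared with Fra-1, by GC of the window around the element (left) and by distance to a protein-coding TSS (right), with 95% exact intervals. The share climbs from 0.163% to 3.88% over the GC bands and ranges from 0.887% to 1.28% over the distances.

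The bases right beside the element set members apart from unbound copies of the same 7 letters. Elements are read here on the strand that gives TGAGTCA. T stood directly before it at 4.71% of members and 22.4% of unbound elements (adjusted exact p = 9.90e-79), and A directly after it at 3.77% and 24.3% (adjusted exact p = 3.11e-103). A before the element was found at 38.6% of members and 23.2% of unbound elements, and T after it at 37.8% and 22.3%. Of 32 tests of 4 bases at 4 positions to each side, 27 passed an adjusted p of 0.05, 11 higher and 16 lower in members, and 18 passed among windows of 40 to 60% GC. A purine before and a pyrimidine after the element occurred together at 51.9% of members and 24.9% of unbound elements (adjusted exact p = 8.61e-108). The grouping into purines and pyrimidines was chosen after the single bases had been seen.

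Read the other way, occupancy followed the same letters. Elements with both matching flanks were in shared peaks in 2.06% of cases (1.94 to 2.18), those with 1 in 0.916% (0.858 to 0.976) and those with none in 0.225% (0.188 to 0.267). The ATF3 and CDKN1A elements printed above have A before TGAGTCA and G after it, so only the first flank matches. The elements of ADAM17, DUSP5 and LTBP2 read ATGAGTCAT and match on both sides.

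Peaks shared with Fra-1 had looser flanks than Fra-2-only peaks. Both flanks matched at 51.1% of members and 70.7% of Fra-2-only peaks, a difference of -19.6 percentage points (-22.8 to -16.4; adjusted exact p = 1.20e-32). Members were wider, with at least 200 bp at 61.4% of members against 28.3% of Fra-2-only peaks, and a wider peak offers more bases for an overlap with Fra-1. Among peaks of at least 150 bp the flank difference was -21.4 points (unadjusted exact p = 5.74e-29). Whether the unknown depth of the Fra-1 library underlies the flank difference was not tested. At each width the flank shares kept their order: 44.1% of members and 66.1% of Fra-2-only peaks at 100 bp, 47.5% and 72.6% at 150 bp, 53.7% and 74.7% at 200 bp, and 54.8% and 76.1% at 250 bp. Element surroundings that recur in the genome were found at 5.75% of members and 12.0% of Fra-2-only peaks (adjusted exact p = 5.37e-10). The flank shares of these 2 sets were not recomputed without such elements. Over both sets, 43.0% of peaks were shared, with 33.6% for ATGAGTCAT (664 peaks) and 70.1% for CTGAGTCAG (97 peaks). Members and gene desert peaks did not differ in this measure beyond counting error, at 51.1% and 50.3% (difference 0.825 points, -4.13 to 5.78; exact p = 0.762).

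ETS sites were the motif with the highest called ratio near occupied elements. The ETS factors are a large family that bind a GGAA core and often act with AP-1 downstream of RAS and MAPK signalling. An ETS site (CAGGAAGT or CCGGAAGT on either strand) was present at 5.45% of members and 1.25% of unbound elements (ratio 4.37, 3.52 to 5.41; adjusted exact p = 1.29e-25). A composite of an ETS core 1 free base away from the element was present at 3.70% and 1.15% (ratio 3.22, 2.48 to 4.19; adjusted exact p = 1.53e-12). Of the 81 members with an ETS site, 8 had it overlapping the element. The next 2 sequences show the composite in capitals, again on the plus strand of GRCh37 with 30 bases on the left; FURIN encodes a proprotein convertase, and GPX4 a peroxidase that protects lipids.
FURIN (chr15:91413109-91413175, plus strand): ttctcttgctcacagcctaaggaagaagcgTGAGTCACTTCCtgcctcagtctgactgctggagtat
GPX4 (chr19:1102543-1102609, plus strand): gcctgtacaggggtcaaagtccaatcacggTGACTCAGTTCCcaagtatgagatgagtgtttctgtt

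Motifs of other families followed. The RUNX site (TGTGGTT) was present at 6.80% of members and 3.26% of unbound elements (ratio 2.09, 1.73 to 2.52), and the FOX site (TGTTTAC) at 5.12% and 2.69% (ratio 1.91, 1.53 to 2.38). The E-box CAGCTG, read by bHLH factors, was present at 16.6% and 8.72% (ratio 1.90, 1.69 to 2.13). The E-box CAGGTG, read by ZEB and Snail repressors, went the other way, at 13.2% and 19.2% (ratio 0.688, 0.604 to 0.784; adjusted exact p = 5.24e-09). Its ratio was 0.779 among elements whose surroundings do not recur (adjusted exact p = 0.00052) and 0.564 among windows of 40 to 60% GC. Of 21 motifs, 12 passed the test, 11 higher and 1 lower in members. Of the 12, the C/EBP-ATF site (TTGCATCA) missed the threshold among elements whose surroundings do not recur (ratio 1.49, adjusted exact p = 0.206). The GC-rich SP/KLF site (GGGCGGG) had a ratio of 3.03, and among windows of 40 to 60% GC it had 1.69 (adjusted exact p = 0.0554), where the NF-kB and KLF sites also missed the threshold.

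Against Fra-2-only peaks, 2 of 21 motifs differed. The ETS site was present at 5.56% of members and 3.11% of Fra-2-only peaks (ratio 1.79, 1.30 to 2.46; adjusted exact p = 0.00365). Among windows of 40 to 60% GC its ratio was 1.53 (adjusted exact p = 0.104). The element followed directly by GC (TGANTCAGC), as in the sites of small and large MAF proteins, was present at 16.8% and 12.3% (ratio 1.36, 1.16 to 1.60; adjusted exact p = 0.00365), and this motif overlaps the element and its 3′ flank. RUNX did not separate the sets beyond counting error, at 6.73% and 6.66% (difference 0.0719 points, -1.59 to 1.73; adjusted exact p = 0.993).

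**Figure D4:**
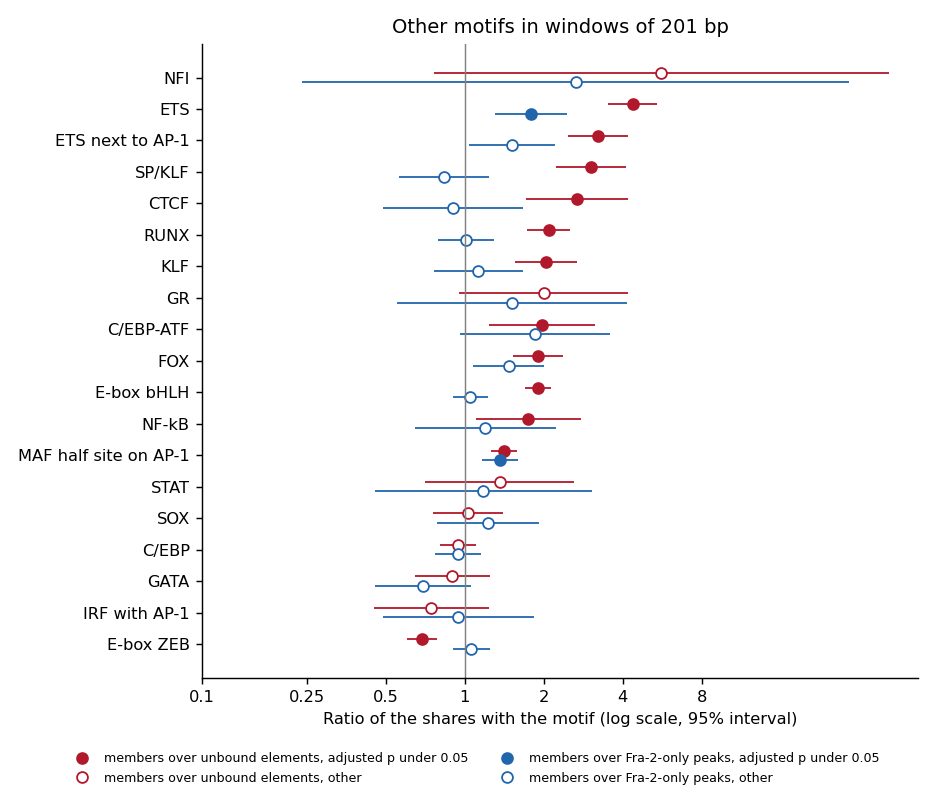
Ratio of the share of single-element peaks with a motif to the share of unbound elements (red) or of Fra-2-only peaks (blue), on a log scale with 95% intervals; filled points have an adjusted p under 0.05. CRE and GRHL sites are not drawn because no member with an isolated element held them; ETS has red and blue points at 4.37 and 1.79.

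Imperfect AP-1 sites were common beside the single perfect element. At least 1 further site with 1 mismatch lay in the window of 58.5% of members and 42.5% of unbound elements (adjusted exact p = 1.95e-34). The same share, centred on the peak, was 59.5% in members and 45.9% in Fra-2-only peaks (adjusted exact p = 1.01e-14), and 59.5% against 52.2% in peaks with several elements (adjusted exact p = 0.0134). Against gene desert peaks the shares were 59.5% in members and 61.9% in gene desert peaks, a difference of -2.43 points (-7.26 to 2.40) that missed the threshold (adjusted exact p = 0.382). By spelling, 12 of 18 passed the test against unbound elements, all 12 higher in members, among them the rarer TGACGCA (ratio 4.42, 2.81 to 6.96). TGACTAA was present at 10.5% of members and 2.20% of unbound elements (ratio 4.77, 4.10 to 5.55; adjusted exact p = 9.12e-55), and TGAGTAA at 8.28% and 2.83% (ratio 2.92, 2.46 to 3.47). Against Fra-2-only peaks these 2 spellings and TGACACA passed the test among 18, at 10.8% against 4.19%, 8.24% against 3.85%, and 7.91% against 4.59%. Spellings were tested after the share with any mismatch had been seen.

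Single-element peaks lay mostly inside genes. Introns of protein-coding genes held 824 (53.9%), 477 (31.2%) were intergenic, 178 (11.6%) lay in lncRNA genes and 51 (3.33%) in exons. The intron share was close to that of unbound elements, 54.8%. The median distance to a protein-coding TSS was 20.2 kb. The next peak of either list, overlapping Fra-1 peaks left out, was a median of 17.8 kb away for members. For Fra-2-only peaks it was 27.5 kb away, for gene desert peaks 23.3 kb and for peaks with several elements 37.2 kb. It lay within the distance commonly used to stitch enhancer peaks at 43.9% of members, 36.2% of Fra-2-only peaks (adjusted exact p = 1.28e-05) and 32% of peaks with several elements (adjusted exact p = 3.38e-05). In gene deserts it did so at 40.2% of peaks, and the difference of 3.73 points (-1.14 to 8.61) missed the threshold (adjusted exact p = 0.19). A Fra-2 width of 200 bp or more, which the rule bears on and which is given as a description, was found at 61.4% of members and 72.2% of peaks with several elements. Of 26 comparisons of 10 features with the 3 like sets, 15 passed the test, but 5 of the 26 and 3 of the 15 concern Fra-2 width or the place of the element, which the rule limits. Among the other 21, 12 passed, 6 higher and 6 lower in members. GC of at least 50% was found at 39.5% of members, 44.2% of Fra-2-only peaks (adjusted exact p = 0.0102) and 22.1% of gene desert peaks (adjusted exact p = 1.23e-12). A TSS lay within 10 kb of 29.6% of members and 34.6% of Fra-2-only peaks (adjusted exact p = 0.00484), and among peaks of at least 150 bp the difference was -4.09 points (adjusted exact p = 0.0547). The Fra-1 peak was at least 200 bp wide at 42.2% of members and 49.5% of gene desert peaks (adjusted exact p = 0.00934). TGAGTCA lay on the strand of the nearest gene at 778 of 1530 members (50.8%, exact binomial p = 0.523).

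Of 18893 protein-coding genes on chromosomes 1 to 22, 3196 (16.9%) had a single-element peak within 100 kb of a TSS. Among these, 2551 had 1, 525 had 2, 102 had 3, 17 had 4 and 1 had 5. EGFR had 4, and so did ENC1, ANK3 (ankyrin G), MDM4 (a p53 inhibitor), NUBP1, PPIF, and the neighbours CD52 and CRYBG2. The gene lists below were drawn up from general knowledge with earlier results of these data known, and their counts are a description beside the 16.9% of all genes, not matched for gene density or number of TSSs.

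The lists with the highest shares concerned YAP, motility, proteases and growth factor signalling. Of 20 YAP/TAZ and TEAD targets, 12 had a single-element peak, although an MCAT core was excluded by the rule. F3, the tissue factor gene, had one at 1.89 kb and WWC1, a Hippo pathway scaffold, at 10.9 kb. Of 19 actin, adhesion and motility genes, 10 had one, among them MICAL2, an actin oxidase, at 6.68 kb and CD44, the hyaluronan receptor, at 9.75 kb. Of 19 proteases and matrix genes, 9 had one, with PLAT, a plasminogen activator, at 2.25 kb. Among 24 EGFR, RAS and MAPK pathway genes, 11 had one, including EGFR at 7.10 kb and the MAPK phosphatase DUSP1 at 7.18 kb. The EGFR peak lay over an exon, and its distance, like the others, is to the nearest transcript start, which can be internal.

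Some AP-1 genes were themselves near such sites. Of 20 AP-1 family genes, 7 had a single-element peak, with MAFK at 2.21 kb and BACH1, a repressor that pairs with small MAF proteins, at 2.41 kb. FOSL2, which encodes Fra-2, had 3, the nearest at 13973 bp, and JUN had 2, the nearest at 56518 bp. Integrin and hemidesmosome genes counted 7 of 20, with the laminin gene LAMA3 at 5.29 kb and the integrin gene ITGB6 at 5.48 kb. Mesenchymal genes counted 6 of 20, with TWIST2 at 16.2 kb and the collagen crosslinker LOX at 21.0 kb. Luminal genes, which mark the other main breast cell lineage, counted 6 of 19, with KRT7 at 10.97 kb, KRT19 at 19.8 kb and KRT8 at 29.2 kb. The peak by KRT7 was nearer to a TSS of KRT86, at 5.08 kb, and that by KRT8 to one of KRT78, at 25.5 kb. Apoptosis genes counted 5 of 19, with MCL1 at 25.2 kb and BCL2L11 at 46.1 kb. The peak by MCL1 was nearer to a TSS of ENSA, at 24.2 kb.

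Other lists were near the share of all genes or below it. Cytokines and chemokines counted 4 of 20, with CXCL8, the neutrophil chemokine, at 14.3 kb and CSF2 at 16.5 kb, and the TGF-beta pathway also 4 of 20, with SMAD3 at 7.19 kb and SMAD7 at 39.9 kb. Cell cycle genes counted 2 of 20, CDKN1A and CDK6, with CDK6 at 67.9 kb. Ribosomal proteins counted 3 of 19, neuron markers 3 of 18 with RBFOX3 at 6.99 kb and MAP2 at 14.7 kb, and blood cell markers 2 of 20, PTPRC at 2.66 kb and CSF1R at 33.0 kb. None of 20 hepatocyte markers had one.

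**Figure D5:**
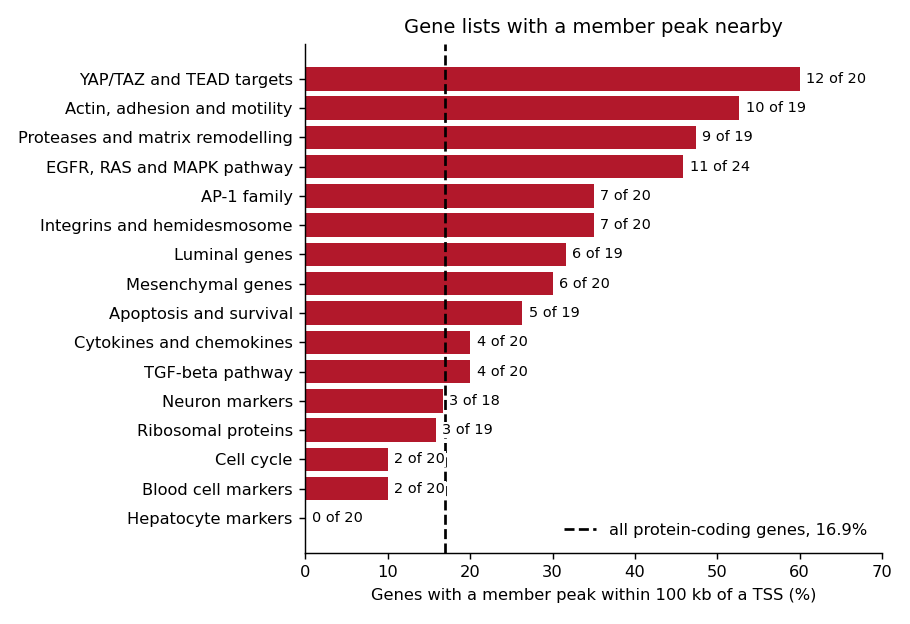
Share of the genes of each list (%) with a single-element peak within 100 kb of a TSS, with the counts; the dashed line is the 16.9% of all protein-coding genes. Shares run from 60% (12 of 20) for YAP/TAZ and TEAD targets to 0 of 20 for hepatocyte markers.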

How the data were processed

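Fra-1 and Fra-2 ChIP-seq peak lists from MDA-MB-231 cells were analysed, 1 list per antibody; per the labels, 2 independent replicates of each were made, and how they were combined is not stated there. Per the labels' protocols, an Illumina kit served for the ChIP libraries. The submitters' processing notes name Bowtie2 and hg19, without a version or role; the peak caller, its threshold and the use of the input were not given in the sources used. In the deposited files the authors give other values than counts, namely the chromosome, start and end of each peak, placed in steps of 50 bp and without a score. Depth is unknown, so the number of regions alone sets the precision, and a narrow or missing peak cannot be told apart from shallow sequencing.

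Peaks were joined with GRCh37 and GENCODE 44 lifted to it, whose chromosome names and lengths fit hg19. Width is end minus start, and distances run from peak centres to the TSS of protein-coding and lncRNA transcripts. Peaks within 1 Mb of a run of N of at least 1 Mb were left out. Unbound elements lay over 500 bp from every peak and met the members' conditions of position, spacing and sequence. Both strands were searched for motifs, up to 100 bp away. Shares were compared with two-sided Fisher exact tests, Benjamini-Hochberg adjusted within each family of tests, with Clopper-Pearson intervals for shares and log-normal ones for ratios (scipy 1.17.1, with pandas 2.3.3 and numpy 2.4.6 under Python 3.11.15; plots with matplotlib 3.10.9). The test code was checked on simulated data. The reference was not soft-masked, so the planned settings on masked repeats were replaced by surroundings that recur: the element with 7 bases to each side found more than 1 time in the genome.

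The members, the 16 gene lists (324 entries) and the motifs were chosen with earlier results of these data known. Named genes were, by rule, up to 3 per list with the nearest member, the 10 genes with most members and the 10 members with the widest Fra-1 partner; of the last, 5 are described. Some genes that the rule names are not reported here. FOSL2 and JUN, and the printed FURIN and GPX4 sites, were chosen after their values were seen. Alternatives covered the overlap, window, TSS set, base list, width, GC, thinning of neighbours and gene assignment.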

Additional observations from a re-analysis of the deposited data

How the results depend on the processing

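Leaving out peaks under 150 bp, another overlap rule, window, TSS set or distance measure, or Fra-1 peaks as the base list gave 1301 to 1671 members, against 1530. The count of motifs that differed from Fra-2-only peaks was 1 among windows of 40 to 60% GC, against 2. The count of flanking base tests passed was 17 against Fra-2-only peaks and 27 against unbound elements, 2 different comparisons; among windows of 40 to 60% GC it was 18 against unbound elements. The share of elements in shared peaks was 1.25% among single-copy surroundings, where fewer elements count, against 1.02%. A TSS within 10 kb exceeded the unbound share by 1.34 points (unadjusted exact p = 0.417) at 40 to 50% GC and by 3.09 points (unadjusted exact p = 0.123) at 50% or more, against 4.16 points in the whole set. Genes near members numbered 483 within 10 kb and 1278 by the nearest TSS alone, against 3196, both by construction. Fra-2 width of at least 200 bp differed from gene desert peaks by -1.33 points among peaks of at least 150 bp, against 0.611 points, with neither past the threshold. Of 124 recomputed values of single bases, motifs and features, 113 kept direction and call, 10 lost the call and 1 changed sign. The cause of lost calls was not tested. Settings on GC for flanks and distance and on single-copy surroundings, and the flank classes, were chosen after seeing the data. The settings on soft-masked sequence were not run, since the reference carries no mask. No paired analysis was possible because each antibody has 1 list. Depth is unknown and limits what an absent peak means.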
